A study of Mus musculus with 8 samples.

Results

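Probes for miR-204, miR-211 and miR-448 (mmu-miR-204, mmu-miR-211 and mmu-miR-448 in mouse), 3 microRNAs grouped here for their links to the choroid plexus, were followed in amygdala tissue of single mice. They were every capture probe of the array whose mouse name has one of these stems, on any arm, which gave 6 of the 1034 mouse probes and of the 2607 capture probes in all. The samples came from adult male C57/Bl6J mice, 4 left in the home cage and 4 fear conditioned and killed 30 min later. Conditioning paired a tone (6 kHz) with a shock (0.6 mA) 5 times. Home cage mice were killed and frozen in the same way, and both amygdalae of each brain were taken with a 1 mm punch. From each mouse, 500 ng of total RNA carried the dye Hy3 and was hybridised, on an array of its own, with a pool made from the individual animals and labelled with Hy5. Neither tone nor shock was given to the home cage group, so learning cannot be told apart from exposure to them.

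A microRNA is cut from a hairpin precursor, and either of the hairpin's arms can give a mature strand, the less abundant of which older names mark with an asterisk. The seed, the bases near the 5' end, pairs with target messenger RNAs and largely sets which ones are repressed. The choroid plexus is the epithelium inside the brain ventricles that secretes cerebrospinal fluid. miR-204 lies within Trpm3, a cation channel gene expressed strongly in that epithelium, miR-211 within Trpm1, a channel gene best known from melanocytes and the retina, and miR-448 within Htr2c, the serotonin 2C receptor gene, whose RNA is abundant in choroid plexus.

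All 6 probes were matched by name to a mature sequence of RefSeq (build GRCm38.p6), as the probes' own sequences were not available here. The 5p strands of miR-204 and miR-211 are shown because their likeness bears on which RNA each probe reads, with the seed (bases 2 to 8) in capitals.
mmu-miR-204 (miR-204-5p): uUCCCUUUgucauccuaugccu
mmu-miR-211 (miR-211-5p): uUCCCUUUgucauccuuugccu
They lie at chr19:22750610-22750631 and chr7:64205831-64205852, both on the plus strand, share their seed, and are alike in 21 of 22 bases. The difference is A17U, counted from 1 at the 5' end with the miR-204 base first. How far either probe binds the other RNA was not tested.

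The strands of the other arms share no seed with them or with each other. The array names miR-204* and miR-211* stand for the 3p strands.
mmu-miR-204* (miR-204-3p): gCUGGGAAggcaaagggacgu
mmu-miR-211* (miR-211-3p): gCAAGGACagcaaaggggggc
mmu-miR-448-3p: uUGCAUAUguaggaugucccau
mmu-miR-448-5p: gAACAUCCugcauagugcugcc
miR-204* lies at chr19:22750649-22750669, miR-211* at chr7:64205868-64205888, miR-448-3p at chrX:147158281-147158302 and miR-448-5p at chrX:147158221-147158242, all on the plus strand. Lined up from their 5' ends, miR-204* and miR-211* are alike in 14 of 21 bases. The Mir204 hairpin, of 68 bases at chr19:22750605-22750672, is given because its arms behaved unlike each other in these arrays, with the 5p and then the 3p strand in capitals.
Mir204 hairpin: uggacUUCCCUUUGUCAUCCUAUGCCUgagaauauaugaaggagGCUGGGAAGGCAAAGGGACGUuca

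Each probe had a pair of measures. The first is the normalised Hy3 signal on the log2 scale, from the scanner intensities of the sample's own channel. The second is the authors' deposited log ratio of each sample to the pool, whose log base and normalisation the sources used here do not give and which is taken as log2. Each array held 12312 spots, 10488 of them of capture probes, and each of the 6 probes was spotted 4 times. On a given array, 565 to 657 mouse probes were above the 95th percentile of the negative control spots. With 4 arrays a group, their number limits how precise any value can be. The array of home cage mouse 1 stood apart: 508 of its spots had a background above the signal, against 0 to 10 on the others. Each mouse's RNA was on its own slide. Slide numbers run consecutively within the home cage group and lie apart from those of the fear conditioned group, so an effect of slide or hybridisation order cannot be told apart from one of conditioning. In tissue punches, fewer cells of a type and less RNA per cell cannot be told apart. The neuronal microRNA miR-124 was above the negative controls on every array, with Hy3 signals of 14.07 to 14.50. Messenger RNA markers of choroid plexus were not measured on this array.

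The probes differed in how far they could be read. Those of miR-204, miR-204* and miR-448-3p exceeded the negative controls on all 8 arrays and that of miR-211 on 7. The miR-448-5p probe was above them on 4 arrays, 2 in each group, and the miR-211* probe on 0. Differences of these last 2 probes are therefore given as values without being read as levels. Spots set aside for poor shape or a background above the signal were 0 of 32 for miR-204 and for miR-204*, 1 for miR-211, 8 for miR-448-5p, 10 for miR-211* and 11 for miR-448-3p.

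miR-204, the strand best known of the 3 loci for its part in epithelial and eye biology, ranged widely from mouse to mouse. Its Hy3 signal was 7.58, 9.01, 9.59 and 9.50 in home cage mice 1 to 4. In fear conditioned mice 1 to 4 it was 9.86, 10.03, 8.21 and 9.76. Home cage mouse 1 and fear conditioned mouse 3 were the lowest in their groups, and the groups overlapped. Before normalisation the background-subtracted intensity of the probe was 100.5 in home cage mouse 1 and 322.9 in fear conditioned mouse 3, and between 410.2 and 1192 in the other 6 mice.

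The ratio to the pool gave the same 2 lowest mice for miR-204. It was -1.22, 0.045, 0.56 and 0.38 in the home cage group. In the fear conditioned group it was 0.74, 0.99, -1.04 and 0.64. Home cage mouse 1 and fear conditioned mouse 3 were the lowest also without background subtraction and with either other scaling of the Hy3 signal.

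Spots of one array do not measure differences of punch, labelling or slide, which the spread between mice also holds. The spread of miR-204 between mice was larger than that between its spots. Its pooled within-group SD was 0.886 in Hy3, against a mean SD of 0.104 between the 4 spots of one array. Among the 480 mouse probes readable on all 8 arrays, that is, exceeding the negative controls there, this SD ranked 3, and the median probe had 0.092. In the ratio the SD of 0.866 ranked 4, with a median of 0.112. Home cage mouse 1 and fear conditioned mouse 3 carried much of it: without both, a choice made after seeing the values, the SD was 0.257 in Hy3 and 0.225 in the ratio.

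**Figure D1:**
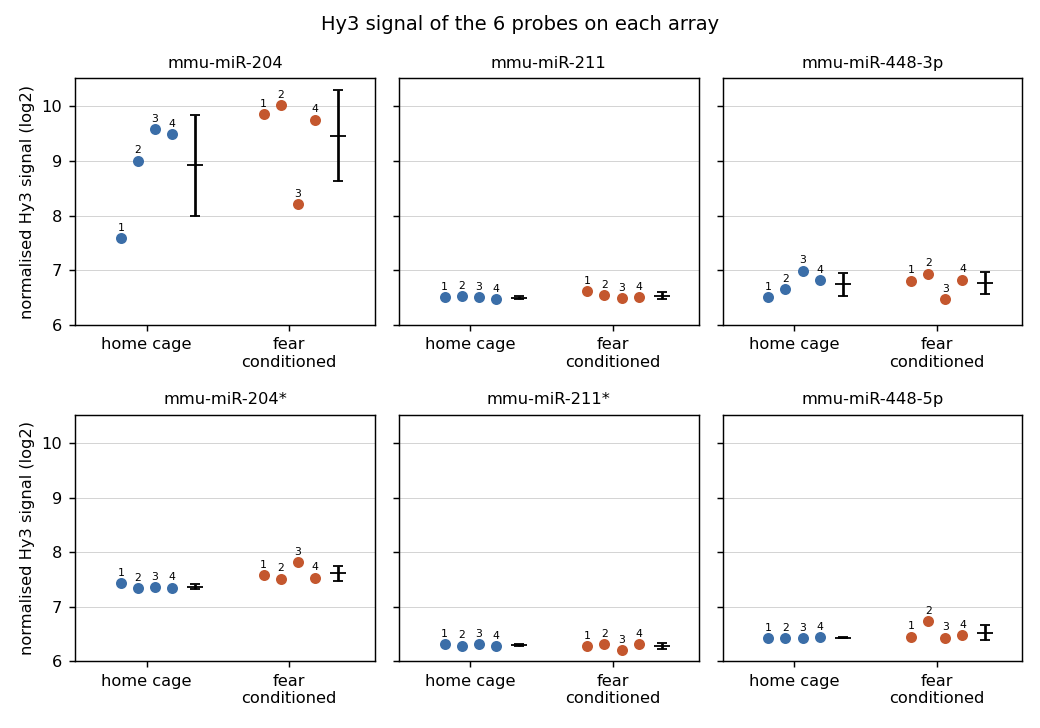
Normalised Hy3 signal (log2) of the 6 probes, 1 panel a probe, with a numbered point for each mouse and the mean ± SD of the 4 mice of a group as a bar beside them. miR-204 runs from 7.58 to 10.03 with home cage mouse 1 and fear conditioned mouse 3 lowest, while miR-204* lies at 7.34 to 7.44 in the home cage group and at 7.52 to 7.81 in the fear conditioned group.

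The comparison of groups asked whether these microRNAs differ in the amygdala soon after conditioning. None of the 6 probes passed limma at an adjusted p of 0.05 in Hy3, where 2 of 1034 mouse probes (0.193%) did. In the ratio 0 of 1033 probes (0%) passed limma, with 79 (7.65%) at an unadjusted p under 0.05, among them miR-204* and miR-448-5p. In Hy3, 14.1% of the probes were under that unadjusted level, among them miR-204* alone of the 6.

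For miR-204 the mean Hy3 signal was 8.92 ± 0.93 (SD, n = 4) in home cage mice and 9.47 ± 0.84 in fear conditioned mice. The difference, fear conditioned minus home cage, was 0.55 with a standard error of 0.55 and a 95% interval of -0.73 to 1.82 (limma adjusted p = 0.670, exact permutation p = 0.429, two-sided). In the ratio it was 0.39 with an interval of -0.65 to 1.43 (limma adjusted p = 0.851). It was smaller than the spread between mice and turned on single animals: without home cage mouse 1 it was 0.11 in Hy3 and 0.0043 in the ratio, and without fear conditioned mouse 3 it was 0.96 and 0.85.

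miR-204*, the strand cut from the other arm of the same hairpin, showed another picture, with an ordinary spread and a small separation of the groups. Its within-group SD was 0.102 in Hy3, ranked 214 of the 480 readable probes, whose median was 0.092. Its Hy3 signal was 7.44, 7.34, 7.36 and 7.35 in home cage mice 1 to 4. In fear conditioned mice it was 7.59, 7.52, 7.81 and 7.54. All 4 fear conditioned mice were above all 4 home cage mice, and the highest was fear conditioned mouse 3, the mouse lowest in its group for miR-204.

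The ratio separated the groups for miR-204* too. It was -0.072, -0.19, -0.14 and -0.22 in the home cage group, all below the pool. In the fear conditioned group it was 0.19, 0.18, 0.39 and 0.087, all above it. Fear conditioned mouse 3 was again the highest.

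The Hy3 difference of miR-204* was 0.24 with a standard error of 0.065 and a 95% interval of 0.09 to 0.39, and it failed the correction over all probes (limma adjusted p = 0.209, 0.00626 unadjusted). The difference in the ratio was 0.36 with a standard error of 0.071 and an interval of 0.21 to 0.52, and it failed as well (limma adjusted p = 0.418, 0.000405 unadjusted). The exact permutation p was 0.0286 in each measure, the smallest that 70 arrangements of 4 against 4 can give. Groups that did not overlap, with fear conditioned higher, were found for 41 of 1003 mouse probes with a value in every mouse in Hy3 (4.09%) and for 43 of 995 in the ratio (4.32%), so that 1 of 6 here is a single probe against that background. With the Hy3 signal scaled by array medians or by spike-in spots instead of quantiles the groups of miR-204* overlapped, with differences of 0.50 and 0.27.

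miR-211, the near twin of miR-204, was steady between mice in Hy3. Its signal was 6.50, 6.52, 6.50 and 6.46 in home cage mice 1 to 4, and not above the negative controls in mouse 4. In fear conditioned mice it was 6.61, 6.53, 6.48 and 6.50. Home cage mouse 1, low in miR-204, lay within the range of its group for miR-211. Fear conditioned mouse 3, also low in miR-204, was the lowest of its group, at 6.48 against 6.50 in mouse 4.

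The group difference of miR-211 was 0.037 with an interval of -0.037 to 0.11 in Hy3 (limma adjusted p = 0.617), and without fear conditioned mouse 1 it was 0.011. Because 50 units are added to each intensity before the log, differences of a probe this dim understate the change. In the ratio miR-211 was 0.073, 0.45, 0.35 and 0.25 in home cage mice and 0.43, 0.25, 0.24 and 0.44 in fear conditioned mice. Home cage mouse 1 was the lowest of all there. Fear conditioned mouse 3 was the lowest of its group by little, at 0.243 against 0.248 in mouse 2. The group difference in the ratio was 0.062 with an interval of -0.13 to 0.26 (limma adjusted p = 0.867). Without home cage mouse 1 it was -0.0072, and it was 0.029 without fear conditioned mouse 4 and 0.12 without home cage mouse 2. The miR-211* probe, never above the negative controls, read 6.20 to 6.32 over the 8 arrays.

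**Figure D2:**
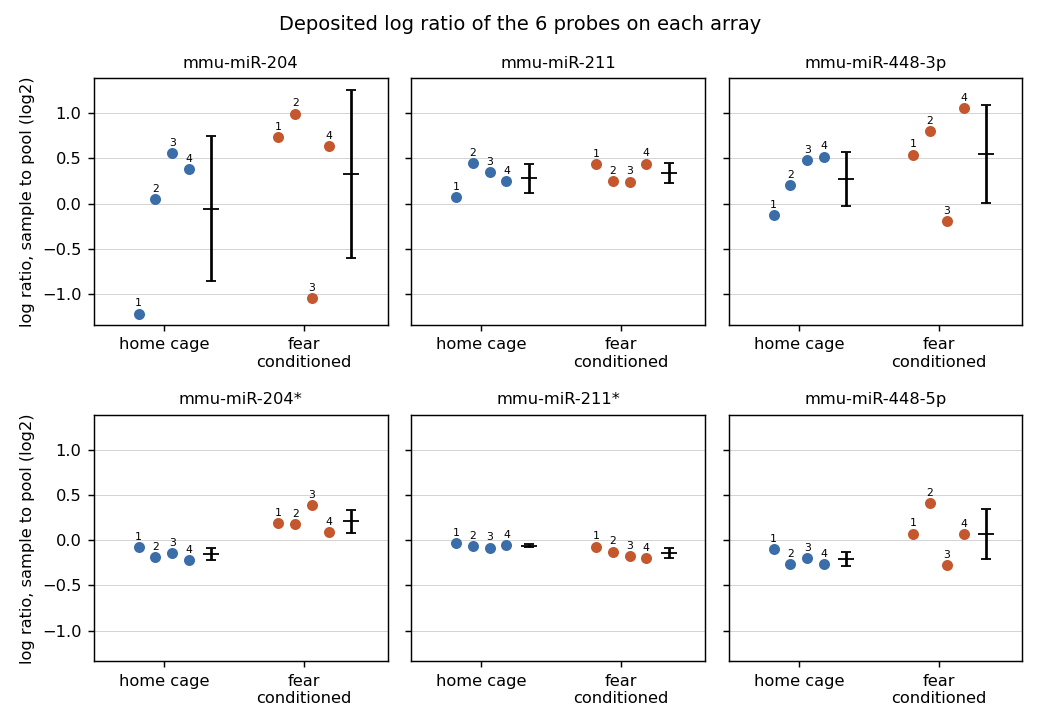
Log ratio of sample to pool (taken as log2) of the same 6 probes from the authors' deposited table, with a numbered point for each mouse and the mean ± SD of the 4 mice of a group. miR-204 and miR-448-3p are lowest in home cage mouse 1 and fear conditioned mouse 3, and miR-204* lies below 0 in the 4 home cage mice and above 0 in the 4 fear conditioned mice.

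miR-448-3p, cut from within the serotonin receptor gene on the X chromosome, was lowest in the same mice as miR-204. Its Hy3 signal was 6.50, 6.66, 6.99 and 6.81 in home cage mice 1 to 4. In fear conditioned mice it was 6.81, 6.94, 6.47 and 6.82. The lowest of each group were again home cage mouse 1 and fear conditioned mouse 3, with the values of home cage mouse 2 resting on 1 spot and those of home cage mouse 3 and fear conditioned mouse 2 on 2 spots. Background-subtracted intensities were only 20.6 in home cage mouse 1 and 25.0 in fear conditioned mouse 3, so signal over background limits both values.

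In the ratio miR-448-3p was -0.13, 0.20, 0.48 and 0.52 in home cage mice and 0.54, 0.80, -0.20 and 1.06 in fear conditioned mice. Its within-group SD was 0.205 in Hy3, where it ranked 54 of 480, and 0.437 in the ratio, where it ranked 8. Without fear conditioned mouse 3 the SD in the ratio was 0.279. The group difference was 0.019 with an interval of -0.28 to 0.32 in Hy3 (limma adjusted p = 0.946), and 0.28 with an interval of -0.25 to 0.82 in the ratio (limma adjusted p = 0.758). The ratio difference was 0.11 without fear conditioned mouse 4, 0.15 without home cage mouse 1 and 0.53 without fear conditioned mouse 3. The Hy3 difference changed sign when home cage mouse 1 (-0.065), home cage mouse 2 (-0.0092), fear conditioned mouse 2 (-0.040) or fear conditioned mouse 4 (-0.0013) was left out, so no direction can be given for it.

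miR-448-5p, the strand of the other arm, read 6.43, 6.43, 6.43 and 6.45 in home cage mice and 6.45, 6.74, 6.43 and 6.49 in fear conditioned mice. Fear conditioned mouse 2 stood highest, and there the 2 spots used had an SD of 0.363, against 0.0098 to 0.030 on the other arrays with over 1 spot. The Hy3 difference was 0.094 with an interval of -0.055 to 0.24 (limma adjusted p = 0.518), and without fear conditioned mouse 2 it was 0.025. In the ratio the difference was 0.28 with an interval of 0.011 to 0.54 (limma adjusted p = 0.594, 0.0428 unadjusted), and without that mouse 0.16.

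**Figure D3:**
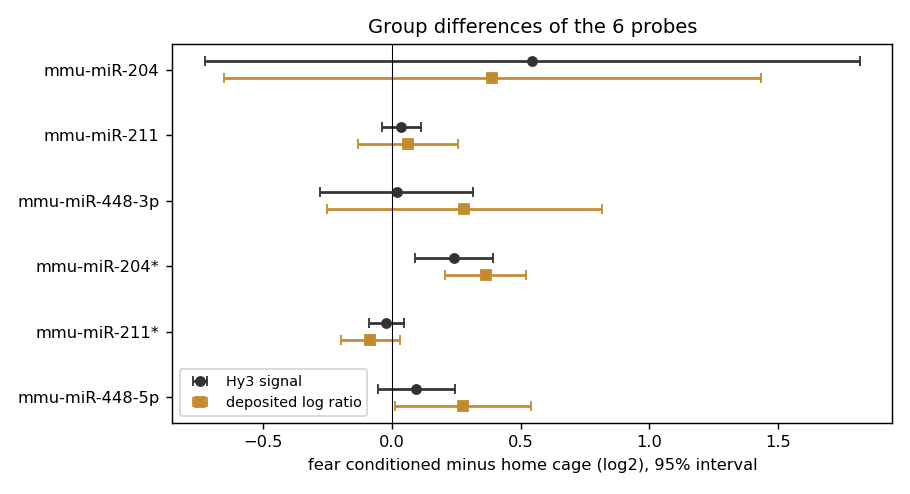
Difference between groups, fear conditioned minus home cage (log2), of each of the 6 probes with its 95% interval from limma, for the Hy3 signal (circles) and the deposited log ratio (squares). The interval of miR-204 is the widest drawn, from -0.73 to 1.82 in Hy3, and that of miR-204* lies above 0 in both measures, from 0.09 to 0.39 and from 0.21 to 0.52, before correction over all probes.

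Correlations between mice were computed for the 3 pairs among the probes readable on every array. In Hy3, miR-204 and miR-448-3p correlated with a Pearson r of 0.90 over the 8 mice (exact permutation p = 0.00322, adjusted over the 3 pairs 0.00967) and a Spearman rho of 0.74 (exact permutation p = 0.0458, adjusted 0.137). With the group means removed r was 0.93 (permutation p adjusted 0.00126, approximate because values so centred are not freely exchangeable between groups). Without the 2 mice farthest from the median of miR-204, home cage mouse 1 and fear conditioned mouse 3, r was 0.68 over 6 mice and did not pass (exact permutation p = 0.147). Leaving out either of them alone gave 0.90 and 0.87. With the signal centred on the spike-in spots it was -0.19. Under that scaling the median deviation of all probes in home cage mouse 1 from their means over the mice was 1.10. Without that mouse r was 0.87.

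miR-204 and miR-204*, of the same hairpin, did not show such a relation over the 8 mice in Hy3, with r = -0.19 (exact permutation p = 0.648) and rho = 0.21 (exact permutation p = 0.619). The sign turned on fear conditioned mouse 3: without it r was 0.34, and without home cage mouse 1 it was -0.44. Over the 6 mice other than these r was 0.79 (exact permutation p = 0.0347, adjusted 0.104). With the group means removed over all 8 it was -0.83 (permutation p adjusted 0.0258, approximate), while rho was -0.31 (permutation p = 0.462, approximate). For miR-204* and miR-448-3p r was -0.42 over 8 mice (exact permutation p = 0.305) and rho -0.24 (exact permutation p = 0.582). Without fear conditioned mouse 3 and home cage mouse 2, the farthest from the median of miR-204*, r was -0.044.

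In the ratio, home cage mouse 1 and fear conditioned mouse 3 lay apart from the rest for miR-204, with a gap of 1.09 against a range of 0.95 among the other 6 mice, so no r over all 8 is given. Over those 6 mice r was 0.84 for miR-204 with miR-204* (exact permutation p = 0.0194, adjusted 0.0583) and 0.70 for miR-204 with miR-448-3p (exact permutation p = 0.122). Neither passed after adjustment over the 3 pairs.

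The probes most like miR-204 from mouse to mouse in Hy3 were those of miR-34b and miR-34c and of miR-1298. Likeness was the Pearson r over the 8 arrays, taken for the 477 other mouse probes readable on all of them, whose median was -0.32 and whose 90th percentile was 0.60. The arrays' scaling is shared by all these probes. The highest were miR-34c with 0.98, miR-34b-5p with 0.97, miR-34c* with 0.97, miR-1298 with 0.97, miR-34b-3p with 0.96 and miR-195 with 0.86, and the first 5 of them were the only probes over 0.9. Without home cage mouse 1 and fear conditioned mouse 3 these were 0.87, 0.79, 0.87, 0.96, 0.87 and 0.04, so that of miR-195 rested on those mice. In the ratio over those 6 mice r with miR-204 was 0.97 for miR-34b-5p, 0.95 for miR-34c and 0.96 for miR-1298. Also among the 6 highest there over all 8 mice were miR-1264-5p, miR-804 and miR-34c*, with 0.91, 0.81 and 0.71 over the 6.

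The sequence of 1 companion from each of these loci is given to set its seed beside that of miR-204.
mmu-miR-34b-5p: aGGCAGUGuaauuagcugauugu
mmu-miR-1298 (miR-1298-5p): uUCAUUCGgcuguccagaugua
miR-34b-5p lies at chr9:51103610-51103632 on the minus strand and miR-1298 at chrX:147064918-147064939 on the plus strand, within Htr2c like miR-448. Neither seed, in capitals, is that of miR-204.

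miR-34c, a microRNA abundant in multiciliated cells such as the ependyma, read 7.25, 9.09, 9.69 and 9.37 in home cage mice and 9.49, 9.96, 7.77 and 9.54 in fear conditioned mice in Hy3. miR-1298 read 6.51, 6.98, 7.44 and 7.39 in home cage mice and 7.52, 7.79, 6.62 and 7.68 in fear conditioned mice. Both were lowest in home cage mouse 1 and fear conditioned mouse 3, as miR-204 was. They were picked for their r with miR-204 over these same mice, so this largely follows from the choice. Their group differences were 0.34 with a standard error of 0.64 for miR-34c (limma adjusted p = 0.820) and 0.33 with 0.30 for miR-1298 (limma adjusted p = 0.631), both smaller than the spread between mice.

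**Figure D4:**
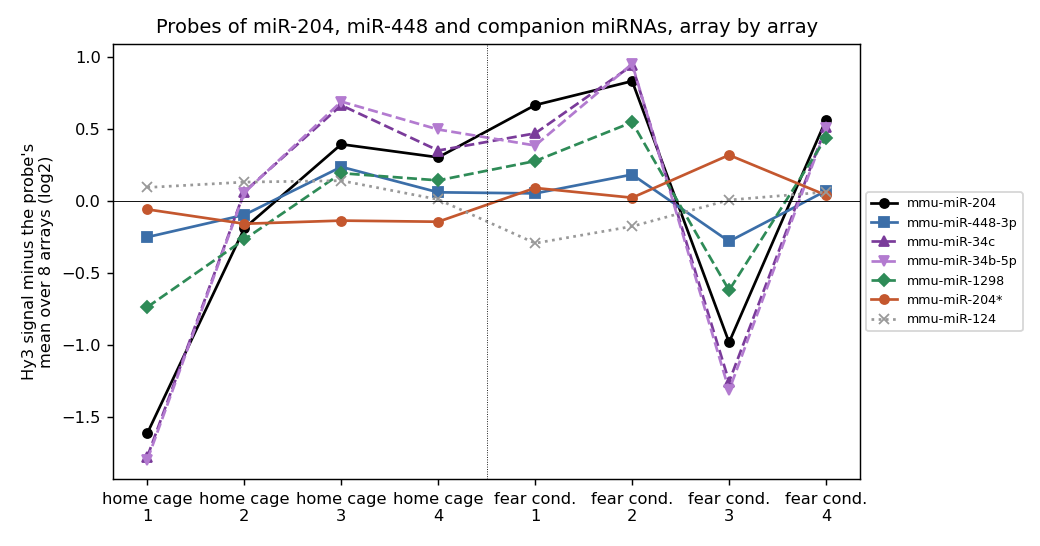
Hy3 signal of 7 probes in each of the 8 mice as the difference from the probe's own mean over all mice (log2), with home cage mice on the left of the dotted line and fear conditioned mice on the right. The lines of miR-204, miR-34c, miR-34b-5p, miR-1298 and miR-448-3p drop together in home cage mouse 1 and fear conditioned mouse 3, while miR-204* is at its highest in fear conditioned mouse 3 and miR-124 stays between -0.29 and 0.14. miR-34c, miR-34b-5p and miR-1298 are among the probes picked for their high r with miR-204 over these mice.

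Other microRNAs of the Htr2c locus gave 8 probes, 5 of them above the negative controls on every array. None of the 8 passed limma in either measure. In Hy3 5 were higher and 3 lower after conditioning, with a median difference of 0.019. The 5 readable probes had a median r of 0.60 with miR-204, from 0.42 for miR-1298* to 0.97 for miR-1298, already named above for its r. Without home cage mouse 1 and fear conditioned mouse 3 that median was 0.43 in Hy3 and 0.90 in the ratio. The smallest unadjusted p among those higher was that of miR-1264-3p, at 0.31 (limma adjusted p = 0.407), and among those lower that of miR-1264-5p, at -0.078 (limma adjusted p = 0.647). The 1028 mouse probes outside the 6 had 488 higher and 540 lower, a median difference of -0.0044, and 2 that passed in Hy3. In the ratio 7 of the 8 Htr2c probes were higher and 1 lower, with a median of 0.086 and miR-1264-5p at 0.11, opposite in sign to Hy3. There 648 of the 1027 other probes were higher and 379 lower, with a median of 0.031.

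Probes of miR-34b, miR-34c and miR-449, microRNAs known from multiciliated cells, numbered 8, with 4 above the negative controls on every array and the miR-449 probes not among those 4. Those of miR-449a, miR-449b and miR-449c exceeded the negative controls on 1, 5 and 1 arrays, and that of miR-449a* on 0. None passed limma, 5 were higher and 3 lower in Hy3, and the median difference was 0.091. In the ratio 6 were higher and 2 lower, with a median of 0.12. The 4 readable probes had r of 0.96 to 0.98 with miR-204. They are the miR-34b and miR-34c probes named above as most like miR-204, so this is the same result and not a further one. The smallest unadjusted p lay with miR-449a* among those lower, at -0.16 (limma adjusted p = 0.112), and with miR-449a among those higher, at 0.036 (limma adjusted p = 0.459). In the ratio these 2 probes stood at 0.036 and 0.029, so that of miR-449a* had the other sign. As a mean of the 4 readable probes, the deviation from their level over all mice ran from -1.12 to 0.42 in home cage mice and from -0.78 to 0.60 in fear conditioned mice. Its lowest values were those of home cage mouse 1 and fear conditioned mouse 3, and its part in the spread of miR-204 was not tested.

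Markers of other cell types did not follow miR-204 in one common way. The 10 readable of 13 neuronal probes had a median r of -0.24 with miR-204, and their mean deviation was -0.03 in home cage mouse 1 and 0.05 in fear conditioned mouse 3. For the 3 readable of 20 epithelial probes (the miR-200 family and kin) the median r was -0.56, with deviations of 0.08 and -0.01. Medians were 0.29 for 4 of 5 oligodendrocyte probes, -0.48 for 8 of 11 astrocyte probes and -0.06 for 5 of 10 microglia and leukocyte probes. They were 0.68 for 3 of 6 vascular and 0.60 for 3 of 5 red blood cell probes. Without home cage mouse 1 and fear conditioned mouse 3 the Hy3 medians were -0.43 (neuronal), -0.38 (epithelial), -0.44 (oligodendrocyte) and -0.50 (astrocyte). They were -0.55 (microglia and leukocyte), -0.22 (vascular) and 0.38 (red blood cell). In the ratio over the same mice they were, in that order, 0.05, -0.26, -0.22, 0.08, -0.22, 0.35 and 0.70. In home cage mouse 1 and fear conditioned mouse 3, both low in miR-204, the mean deviations were -0.44 and -0.11 for oligodendrocyte probes, -0.38 and -0.058 for vascular probes and -0.24 and -0.30 for red blood cell probes. They were 0.051 and 0.017 for astrocyte probes and 0.058 and -0.059 for microglia and leukocyte probes. The part of the lists that were low in these mice in the spread of miR-204 was not tested. None of the probes of these lists passed limma in either measure. Higher and lower probes in Hy3 numbered 5 and 8 (neuronal), 10 and 10 (epithelial), 2 and 3 (oligodendrocyte) and 3 and 8 (astrocyte). They numbered 3 and 7 (microglia and leukocyte), 4 and 2 (vascular) and 3 and 2 (red blood cell). Those with the smallest unadjusted p in each direction were miR-138-2* at 0.27 and miR-124 at -0.19 among neuronal probes (limma adjusted p = 0.141 and 0.344). Among astrocyte probes they were miR-193b* at 0.033 and miR-26a at -0.14 (limma adjusted p = 0.769 and 0.269). Among leukocyte probes they were miR-223* at 0.047 and miR-150 at -0.26 (limma adjusted p = 0.544 and 0.112). For oligodendrocyte probes they were miR-338-3p at 0.45 and miR-338-5p at -0.14 (limma adjusted p = 0.627 and 0.407). For vascular probes they were miR-145 at 0.16 and miR-143* at -0.0062 (limma adjusted p = 0.441 and 0.906). Epithelial probes gave miR-141* at 0.023 and miR-200a* at -0.067 (limma adjusted p = 0.636 and 0.371). Red blood cell probes gave miR-144* at 0.023 and miR-486 at -0.078 (limma adjusted p = 0.718 and 0.390). miR-143*, miR-200a* and miR-144* exceeded the negative controls on 1, 1 and 0 arrays. In the ratio miR-138-2* (-0.063), miR-150 (0.16), miR-338-3p (-0.19), miR-338-5p (0.035) and miR-143* (0.17) had the other sign. The same sign was kept by miR-124 (-0.084), miR-26a (-0.021), miR-145 (0.039), miR-193b* (0.20) and miR-223* (0.11). It was also kept by miR-141* (0.083), miR-200a* (-0.080), miR-144* (0.0087) and miR-486 (-0.036). Higher and lower ratios numbered 8 and 5 (neuronal), 9 and 11 (epithelial), 3 and 2 (oligodendrocyte) and 5 and 6 (astrocyte). They numbered 4 and 6 (microglia and leukocyte), 5 and 1 (vascular) and 3 and 2 (red blood cell).

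**Figure D5:**
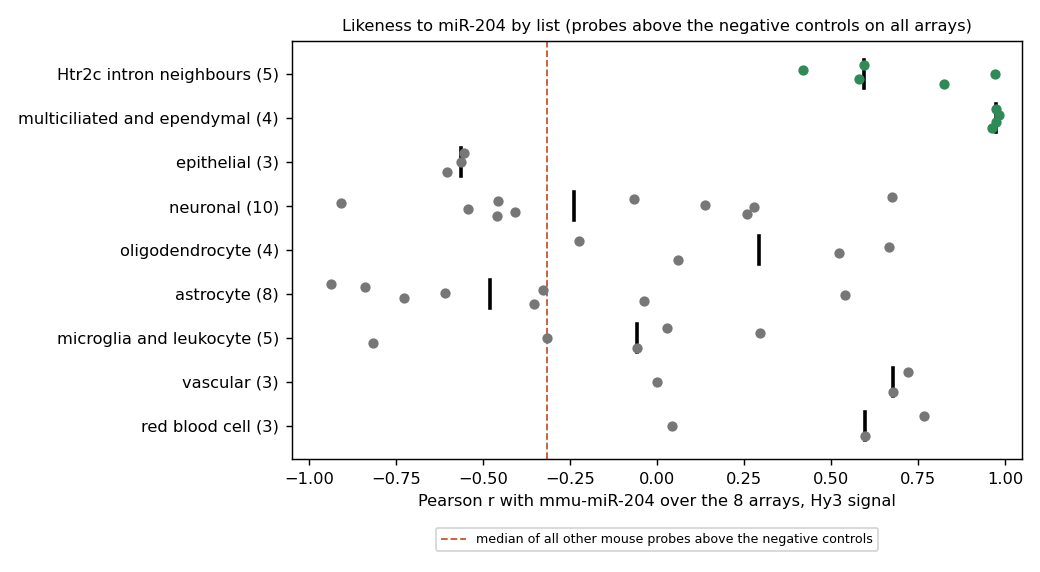
Pearson r with miR-204 over the 8 mice in Hy3 for the probes of each list that exceeded the negative controls in all 8 mice, with a point a probe, a black bar at the list's median and a dashed line at -0.32, the median of all other readable mouse probes. The 4 multiciliated points lie at 0.96 to 0.98 and the Htr2c points at 0.42 to 0.97, with the other lists reaching at most 0.77. Those 4 points and that of miR-1298 are the probes named in the text as most like miR-204.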

How the data were processed

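Per the labels' protocols, RNA of each mouse was labelled with Hy3 and a pool with Hy5 and hybridised to Exiqon miRCURY LNA arrays (6th generation), whose probes contain locked nucleic acid. The deposited scanner files hold, per the file headers, the spot intensity and local background of 1 channel, with flags. It was taken as Hy3, since the Hy3 landmark spots are lit and its deviations correlate with the deposited ratios at 0.341 to 0.739 by array. The authors deposited log2 ratios (base taken, not stated) of sample to pool, with 15 to 26 missing values an array. The direction, sample over pool, follows from the dyes in the labels and these correlations.

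Intensities were corrected with normexp (offset 50) and quantile normalised over capture spots in limma 3.58.1 (R 4.3.3). Spots flagged 3 (poor shape) or 4 (background above signal) were left out and the 4 spots of a probe averaged. The group difference was fitted with lmFit and eBayes over 1034 probes in Hy3, and over 1033 with at least 2 ratios in each group. P-values were two-sided, Benjamini-Hochberg adjusted over all these probes. Single probes and correlations used exact permutation tests, the latter over 40320 orders of 8 arrays. For correlations with the group means removed the permutation p is not exact and can be too small. The labels do not say whether the mice of a group were handled as separate batches, so p-values measure the spread between these 8 mice. Same-numbered mice of the groups correlated at -0.616 to 0.0306, none best with its own number, so they were not paired.

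The 6 probes, the lists and the likeness rule (the 6 probes with the highest r) were chosen with earlier results of these data known. Mature sequences came from a RefSeq table of 1679 microRNAs. Alternatives changed the offset, background, scaling, flags, spot summary, array weights, probe filter, replicate block and arrays. The fit was tested on simulated data. Figures were drawn with matplotlib 3.10.9.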

Additional observations from a re-analysis of the deposited data

Results flagged for a closer look

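In 26 groups of 4 arrays examined, 3 had a value far from the other 3 by Dixon's test, and chance gives this in about 1 in 20 groups. The Hy3 signal of miR-204 was 8.21 in fear conditioned mouse 3, against 9.76 to 10.03 in the other fear conditioned mice. The 95th percentile of the negative control spots, on the background-corrected log2 scale before quantile normalisation, was 7.23 in home cage mouse 1, against 6.17 to 6.23 in the other home cage mice. It was 6.25 in fear conditioned mouse 4, against 6.48 to 6.52 in the other fear conditioned mice.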

How the results depend on the processing

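The group differences of miR-204 and miR-204* kept their sign in every alternative run, from 0.105 to 0.958 and from 0.169 to 0.536 in Hy3 and from 0.0043 to 0.847 and from 0.306 to 0.406 in the ratio, and none passed. The Hy3 count of probes that passed, 2, was 0 without background subtraction, with median or spike-in centring, with the replicate block, without both mice low in miR-204, and with spike-in centring without home cage mouse 1. It was 1 with flagged spots kept or with dim probes left out, 4 with the median of spots, 5 with array weights, and 0 to 2 leaving out 1 array. The replicate block changed no call among the 6 probes. With spike-in centring the median group difference of all probes was -0.18, and the differences of miR-211 (-0.181), miR-448-3p (-0.150) and miR-448-5p (-0.143) turned. Keeping flagged spots turned miR-211 (-0.0028) and miR-448-3p (-0.0096), and array weights turned miR-448-3p (-0.040). miR-211* turned without both low mice (0.0088) and with spike-in centring without home cage mouse 1 (0.126). Leaving out 1 array gave -0.065 to 0.110 for miR-448-3p, -0.038 to 0.0031 for miR-211*, and -0.0072 to 0.118 for miR-211 in the ratio. The within-group SD of miR-204* came to 0.273 under median and 0.439 under spike-in centring and 0.221 with that and without home cage mouse 1. With spike-in centring it was 0.512 for miR-211, 0.556 for miR-211*, 0.435 for miR-448-3p and 0.539 for miR-448-5p, and without home cage mouse 1 it was 0.106 for miR-211 and 0.119 for miR-211*. In the ratio it was 0.137 for miR-211, 0.437 for miR-448-3p and 0.204 for miR-448-5p, and with offset 10 it was 0.085 for miR-211*. The r of miR-204 with miR-204* was 0.367 without background subtraction, 0.435 with median centring, 0.790 without both low mice, 0.836 in the ratio over 6 mice, -0.830 with group means removed, and -0.443 to 0.341 leaving out 1 array. For miR-204 with miR-448-3p it was -0.192 with spike-in centring, 0.688 without both low mice, 0.696 in the ratio over 6 mice, and 0.874 to 0.951 leaving out 1 array, with an adjusted permutation p of 0.075 without home cage mouse 2. For miR-204* with miR-448-3p it was 0.102, 0.141 and 0.556 without background subtraction, with median and with spike-in centring, 0.167 without both low mice, 0.621 in the ratio over 6 mice, -0.784 with group means removed, and -0.585 to 0.129 leaving out 1 array. The settings without both low mice or with 2 changes together were chosen after seeing the data. Causes were not tested. Signal over background limits miR-211, miR-211* and miR-448-5p, and also miR-448-3p in home cage mouse 1 and fear conditioned mouse 3.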

Other observations

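The probes most like miR-204* from mouse to mouse, looked up after its values were seen, were other ones than those most like miR-204. In Hy3 over the 8 arrays the 6 highest Pearson r among 477 readable probes were 0.94 for miR-467h, 0.92 for miR-669d-2*, 0.90 for the shared probe of miR-466b-5p and miR-466o-5p, 0.89 for miR-467b*, 0.88 for miR-1192 and 0.87 for miR-669b*. Of these, 5 belong by name to the miR-466, miR-467 and miR-669 families, a large rodent group of repeated hairpins. In the ratio the highest were miR-1983 with 0.91, miR-193b* with 0.90 and miR-466i-5p with 0.88. The order was thus not shared between the measures, though the miR-466 family appeared in both. None of the 6 in Hy3 passed limma, and the largest of their differences was 0.27 for miR-1192 (limma adjusted p = 0.134).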
